A study of Mus musculus with 23 samples.

Results

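F-box proteins are the interchangeable substrate receptors of SCF ubiquitin ligases, and their transcripts were measured here in the hippocampal CA3 region of mice that express the aberrant ubiquitin UBB+1. Members were all probe sets whose array annotation names 1 gene only, with a symbol made of Fbxo, Fbxl or Fbxw followed by a digit. This gave 115 probe sets for 67 genes, of which 57 probe sets (36 genes) were among the 22625 tested on the Affymetrix MOE430A array and 58 probe sets (41 genes) were among the 22511 tested on MOE430B. The genes comprised 32 Fbxo, 17 Fbxl and 18 Fbxw genes, and 10 of them were measured on both arrays. A pair of MOE430B probe sets that name several Fbxw genes was left out. The symbol Fbxl12os meets the rule by its letters but belongs to a transcript from the strand opposite to Fbxl12 that encodes no F-box protein, and it is counted.

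UBB+1 tg mice carried human UBB+1 under the CaMKIIα promoter, which is active mainly in excitatory neurons of the forebrain. They were heterozygous animals of a single line on a C57BL/6J background, and the wild-type mice were non-transgenic littermates. All animals were 18 months old, and no other treatment was given to either genotype in the sources used here. The CA3 region was cut by laser from stained frozen sections, and RNA from each mouse was amplified in 2 rounds before labelling. MOE430A held 6 UBB+1 tg and 5 wild-type mice, and MOE430B held the same 11 mice and 1 more wild-type mouse, wt331. Mice are named by genotype (tg or wt) and the number in their label.

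In an SCF ligase the cullin Cul1 is the scaffold, Rbx1 is the RING protein that recruits the ubiquitin-charged enzyme, and Skp1 links the cullin to the F-box motif of 1 receptor at a time. The part of the receptor outside the F-box selects the substrate, through WD40 repeats in the Fbxw family, leucine-rich repeats in the Fbxl family and diverse domains in the Fbxo family. Chains built by SCF ligases commonly send substrates to the proteasome, which UBB+1 protein can inhibit, so the comparison asks whether receptor transcripts differed in tissue whose neurons carry this inhibitor. In neurons, individual receptors are known to act at synapses, in axon growth, in the removal of misfolded glycoproteins and in iron control.

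The promoters of the members that came closest to a genotype difference are shown first, together with those of Fbxo44 and Fbxo2, neighbours on chromosome 4. Fbxo32, also among the members at an unadjusted p under 0.05, was not in the promoter table. The RefSeq table (build GRCm38.p6) held a promoter, 250 bases before to 50 bases after a transcript start, for 49 of the 67 genes, and the first listed was used. Capitals mark CCAAT boxes (CCAAT) and GC boxes (GGGCGG) on either strand. The windows were chr12:59219434-59219733 (minus strand) for Fbxo33, chr10:5805416-5805715 (minus strand) for Fbxo5, chr17:63500531-63500830 (minus strand) for Fbxl17, chr4:148160045-148160344 (minus strand) for Fbxo44 and chr4:148160418-148160717 (plus strand) for Fbxo2.
Fbxo33: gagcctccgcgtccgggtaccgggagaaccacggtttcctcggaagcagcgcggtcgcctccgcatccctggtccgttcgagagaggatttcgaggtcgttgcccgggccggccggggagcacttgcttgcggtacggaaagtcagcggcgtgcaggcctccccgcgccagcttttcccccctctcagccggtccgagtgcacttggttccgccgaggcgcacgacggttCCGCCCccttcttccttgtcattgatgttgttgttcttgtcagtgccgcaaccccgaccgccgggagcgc
Fbxo5: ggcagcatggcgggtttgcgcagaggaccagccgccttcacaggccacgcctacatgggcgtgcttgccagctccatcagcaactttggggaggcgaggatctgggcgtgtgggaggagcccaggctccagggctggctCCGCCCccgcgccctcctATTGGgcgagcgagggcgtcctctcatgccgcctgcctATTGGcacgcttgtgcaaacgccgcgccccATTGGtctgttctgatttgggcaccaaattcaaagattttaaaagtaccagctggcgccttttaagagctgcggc
Fbxl17: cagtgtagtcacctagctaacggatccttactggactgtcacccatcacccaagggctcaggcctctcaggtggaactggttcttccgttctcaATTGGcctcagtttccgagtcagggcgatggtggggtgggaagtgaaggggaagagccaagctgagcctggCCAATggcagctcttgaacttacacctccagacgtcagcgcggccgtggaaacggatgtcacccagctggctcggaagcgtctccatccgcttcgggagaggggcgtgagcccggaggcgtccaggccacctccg
Fbxo44: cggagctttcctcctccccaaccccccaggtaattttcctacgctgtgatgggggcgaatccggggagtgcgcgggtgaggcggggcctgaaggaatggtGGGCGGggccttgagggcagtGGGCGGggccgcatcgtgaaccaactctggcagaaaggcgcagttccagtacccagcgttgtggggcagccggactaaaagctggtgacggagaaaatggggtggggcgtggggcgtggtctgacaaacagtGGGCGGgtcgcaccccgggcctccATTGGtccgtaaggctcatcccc
Fbxo2: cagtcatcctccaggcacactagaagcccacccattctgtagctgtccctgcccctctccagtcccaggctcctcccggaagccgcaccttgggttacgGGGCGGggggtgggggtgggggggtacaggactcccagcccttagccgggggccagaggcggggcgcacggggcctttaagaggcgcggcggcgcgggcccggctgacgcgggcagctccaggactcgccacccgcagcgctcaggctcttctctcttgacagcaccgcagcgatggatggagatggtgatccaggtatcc

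Fbxo33 held 1 GC box, Fbxo5 held 3 CCAAT boxes and 1 GC box, Fbxl17 held 2 CCAAT boxes, Fbxo44 held 1 CCAAT box and 3 GC boxes, and Fbxo2 held 1 GC box. These windows had a GC content of 67.0%, 62.7%, 61.0%, 65.3% and 69.0%. Fbxo44 and Fbxo2 lay head to head, with 574 bp between the starts used here. Over the 49 promoters, 31 (63.3%) held a GC box, compared with 35.9% of all 27025 first-listed promoters, and 13 (26.5%) held a CCAAT box, compared with 37.9%. The TATA box TATAAA was in 0 of 49, compared with 14.2% of all promoters, the E-box CACGTG in 2 (4.1%, compared with 7.24%), the CRE TGACGTCA in 1 (2.0%, compared with 1.88%) and the FoxO motif GTAAACA in 0 (compared with 3.55%). Both strands were searched, no motif contains another, and a match describes the letters in this window only.

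Values are log2 intensities summarised per probe set by RMA (robust multi-array average), and a difference of 1 means 2-fold. Levels differ between probe sets for technical reasons as well, so each is compared only with itself across animals. The arrays differed in how far the amplified RNA reached from the 3′ end. This was measured on the array's controls for Gapdh and β-actin as the log2 signal of their 3′ minus that of their 5′ probe sets, called the 3′–5′ difference here. Clustering of all probe sets split the arrays into 3 sets, and these were ordered by the 3′–5′ difference. On MOE430A a low set (mouse tg271, mice wt287 and wt290) spanned 2.65 to 3.43, a middle set of 6 mice spanned 4.44 to 4.62, and a high set (mouse tg270, mouse wt289) spanned 6.05 to 6.10. MOE430B gave the same sets, with mouse wt331 in the middle one. On MOE430A the 3′–5′ difference of UBB+1 tg mice averaged 4.61 ± 0.83 (SD, n = 6), and that of wild-type mice averaged 4.10 ± 1.45 (SD, n = 5; two-sided exact permutation p = 0.435), and the means on MOE430B were 4.85 ± 0.81 (n = 6) and 4.22 ± 1.51 (n = 6; exact permutation test, p = 0.407). Of the 8 CA3 marker genes 7 lay above the 25th percentile of probe set means on their array, the limit used here for dim probe sets, and Coch lay below it. Of the 6 dentate granule cell markers 3 lay below that limit, with Prox1 at percentile 1.8 the dimmest, and 3 lay above it. Those above were C1ql2 at percentile 73.2, Lct at 68.6 and Dsp at 30.6, so signal from dentate cells is not shown to be absent. Each marker gene was represented by 1 probe set, and any other probe sets of these genes are left out of the marker counts. No gene of any marker list passed an FDR of 10%. Of the CA2 markers 4 of 5 measured had higher means in UBB+1 tg mice and Cacng5 had an unadjusted limma p of 0.00495, while the summed intensity of the 4 on MOE430A ranged from 967 to 3904 in UBB+1 tg and from 835 to 1980 in wild-type mice. The only other marker gene at an unadjusted p under 0.05 was the neuron marker Map2, lower at -0.18 (limma unadjusted p = 0.0321). When the 3 array sets were entered as a block, 3 of the 5 CA2 markers were higher at an unadjusted p under 0.05. Their log2 fold changes were 0.52 for Rgs14 (limma unadjusted p = 0.00031), 0.78 for Cacng5 (limma unadjusted p = 0.0027) and 0.82 for Pcp4 (limma unadjusted p = 0.038). In that fit 8 of the 80 measured genes of the 11 marker lists were higher and 6 were lower at this threshold. Besides the CA2 markers, the higher ones were Prss23 and Cpne4 (CA3), Snap25 (neurons), Spink8 (CA1) and Gad1 (interneurons). The lower ones were Tubb3 and Map2 (neurons), Lct (dentate granule cells), Olig1 (oligodendrocytes), and P2ry12 and C1qa (microglia). Of all probe sets, 3.77% were higher and 3.42% lower on MOE430A, and 2.38% and 2.68% on MOE430B. The array sets came from the same values, so p-values of this fit can be too small. The part of these markers in the F-box values was not tested.

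No F-box receptor passed the test for a genotype difference. On MOE430A 0 of 57 probe sets and on MOE430B 0 of 58 passed an FDR of 10% (limma, adjusted over the whole array), where the share of all probe sets called was 0% and 0%. The smallest adjusted p among members was 0.984 on MOE430A and 1.00 on MOE430B. At an unadjusted p under 0.05, 1 member was higher in UBB+1 tg mice on MOE430A, compared with 1.91% of all probe sets, and 0 were lower, compared with 1.57%. On MOE430B 2 members were higher, compared with 1.52% of all, and 1 was lower, compared with 1.53%. As shares of the members these counts were 1.75%, 0%, 3.45% and 1.72%. The groups overlapped in all 115 member probe sets. Over all probe sets, every UBB+1 tg mouse lay above every wild-type mouse in 0.115% on MOE430A and 0.0622% on MOE430B, and below in 0.119% and 0.08%.

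**Figure D1:**
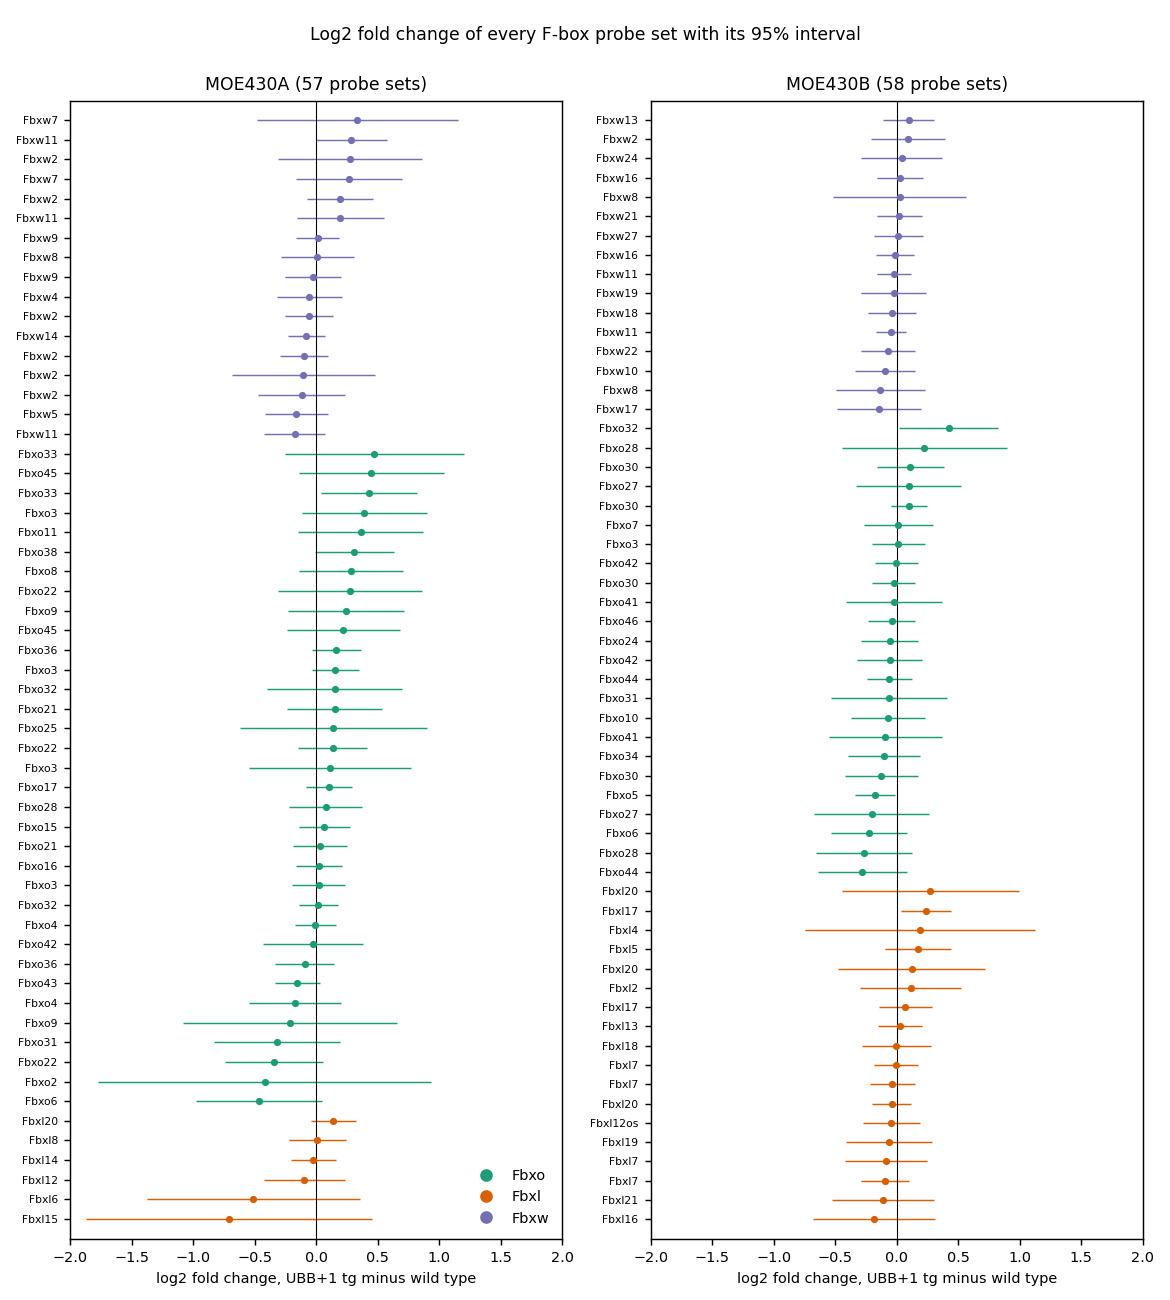
Log2 difference between UBB+1 tg and wild-type means (x axis) of all 57 F-box probe sets on MOE430A and all 58 on MOE430B (y axis, gene symbols grouped by family), with bars for the 95% interval from limma. Of the 115 intervals 111 include 0, and the lowest value is that of Fbxl15 at -0.71.

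The median log2 fold change of the members, with positive values for higher levels in UBB+1 tg mice, was 0.02 on MOE430A, where 34 probe sets were higher and 23 lower, beside a median of 0.005 over all probe sets. On MOE430B it was -0.03, with 22 higher and 36 lower, beside -0.005 over all. On MOE430A 59.6% of members and 51.7% of all probe sets were higher. On MOE430B these shares were 37.9% and 47.6%. The members ranged from -0.71 to 0.47 on MOE430A, where 1 of 57 differed by over 1.5-fold compared with 1.68% of all, and from -0.28 to 0.42 on MOE430B, where 0 of 58 did compared with 0.56%. The 95% interval lay within 2-fold in either direction for 50 of 57 probe sets on MOE430A and 57 of 58 on MOE430B, and within 1.5-fold for 33 and 49. A 2-fold difference thus lay outside the interval of most members, while differences smaller than their intervals could not be detected with this number of arrays. In this tissue, fewer cells of a type and less RNA per cell cannot be told apart. By family, the median was 0.01 over the 58 Fbxo, -0.02 over the 24 Fbxl and -0.02 over the 33 Fbxw probe sets.

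Fbxl17 encodes a leucine-rich repeat receptor known for the quality control of BTB-domain dimers, and its probe set 1430241_at on MOE430B had the smallest unadjusted p of any member. The log2 value was 7.40 at lowest, 7.57 at the median and 7.82 at highest in the 6 UBB+1 tg mice, and 7.02, 7.39 and 7.50 in the 6 wild-type mice. All 6 UBB+1 tg mice lay above the wild-type mean, and 4 lay above every wild-type mouse. The log2 fold change was 0.24 (SE 0.09, limma unadjusted p = 0.0258, adjusted p = 1.00; exact permutation test over animals, p = 0.0152). Mouse wt331, at 7.02, stood apart from the other wild-type mice, and without it the log2 fold change was 0.17 (limma unadjusted p = 0.0566). The second Fbxl17 probe set, 1452860_at, gave 0.07 (SE 0.10).

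Fbxo33 encodes a receptor of the Fbxo family for which few substrates are known. Its probe set 1426870_at on MOE430A had log2 values of 8.48 at lowest, 8.95 at the median and 9.07 at highest in UBB+1 tg mice, compared with 8.32, 8.76, 7.80, 8.68 and 8.59 in mice wt287, wt289, wt290, wt291 and wt321. Each of the 6 UBB+1 tg mice exceeded the wild-type mean and 4 were above the highest wild-type mouse, while the lowest wild-type values were those of mice wt287 and wt290 of the low array set. The log2 fold change was 0.43 (SE 0.18, limma unadjusted p = 0.0359, adjusted p = 0.984; exact permutation test, p = 0.0433). The second probe set, 1426871_at, gave 0.47 (SE 0.33), also with each UBB+1 tg mouse higher than the wild-type mean. With the middle array set alone, of 4 UBB+1 tg and 2 wild-type mice, these log2 fold changes were 0.22 and 0.09.

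Fbxo32, also called atrogin-1, is known for its induction in wasting muscle. On MOE430B its probe set 1435265_at had log2 values of 5.56 at lowest, 6.14 at the median and 6.75 at highest in UBB+1 tg mice, and of 5.20, 5.77 and 6.07 in wild-type mice. The lowest UBB+1 tg value was that of mouse tg271 and the lowest wild-type value that of mouse wt287, both of the low array set. The log2 fold change was 0.42 (SE 0.18, limma unadjusted p = 0.0406, adjusted p = 1.00; exact permutation test, p = 0.0628). After adjustment for the 3′–5′ difference the log2 fold change was 0.33 (limma unadjusted p = 0.0830). The MOE430A probe sets of Fbxo32 gave 0.01 (SE 0.07) for 1417522_at, whose sign turned when an animal was left out, and 0.15 (SE 0.25) for 1448747_at.

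Fbxo5, also called Emi1, inhibits the anaphase-promoting complex in dividing cells and was the 1 member at an unadjusted p under 0.05 with a lower mean in UBB+1 tg mice. On MOE430B its probe set 1429499_at had log2 values of 5.74, 5.94 and 6.07 (lowest, median, highest) in UBB+1 tg mice and 5.95, 6.10 and 6.31 in wild-type mice. All 6 UBB+1 tg mice were below the wild-type mean, and 3 were below every wild-type mouse. The log2 fold change was -0.18 (SE 0.08, limma unadjusted p = 0.0352, adjusted p = 1.00; exact permutation test, p = 0.0216). Its limma unadjusted p was 0.0548 on blocking by array set and 0.0596 after adjustment for the 3′–5′ difference. Fbxo43, the related inhibitor of meiotic cells, had a log2 fold change of -0.16 (SE 0.08) on MOE430A at a level in percentile 12.1 of the array. The exact permutation test could have reached 0.00216 on either array. 

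Each of these 4 unadjusted calls depended on single animals when mice were left out in turn. For Fbxl17 it was lost without mouse tg271 or tg273 or mouse wt331 (limma unadjusted p of up to 0.0623). For Fbxo33 it was lost without mouse tg270, tg273, tg274 or tg277 or mouse wt287 or wt290 (p from 0.0554 to 0.0850 in limma). For Fbxo32 the mice were tg270, tg273, tg276 and tg277 and wt287, wt290 and wt331 (p from 0.0550 to 0.0955 in limma), and for Fbxo5 they were tg274 and tg277 and wt287, wt290, wt321 and wt331 (p from 0.0521 to 0.0854 in limma). The signs of the log2 fold changes of these 4 probe sets were kept in every case.

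**Figure D2:**
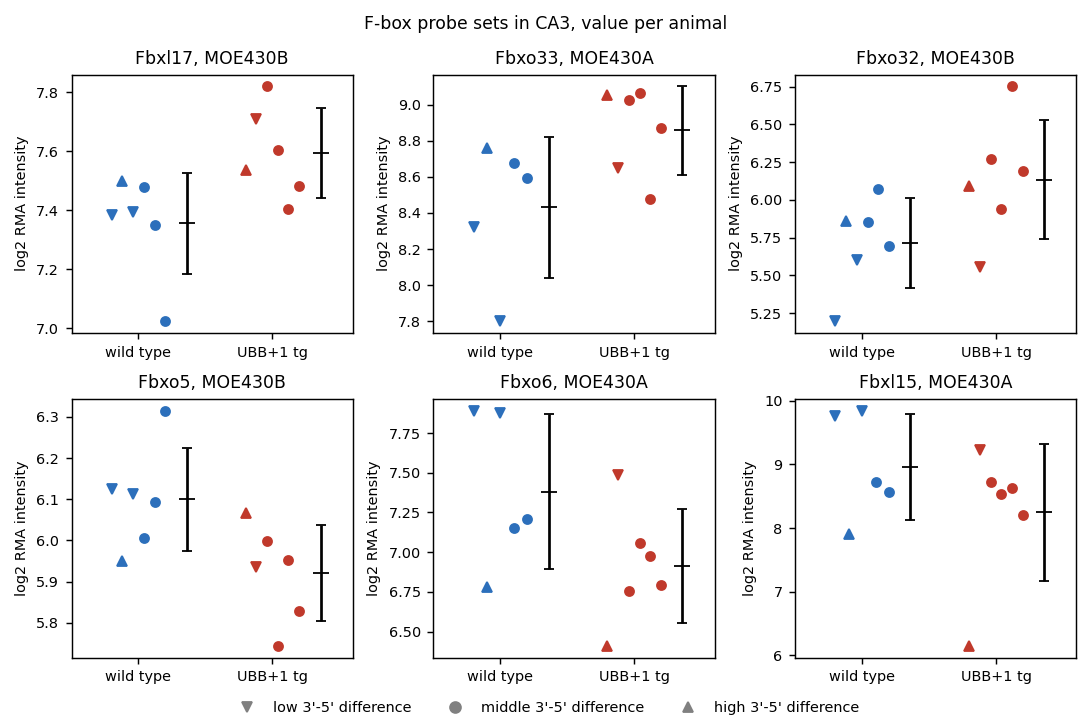
Log2 RMA intensity (y axis) per mouse for 6 F-box probe sets, wild type in blue and UBB+1 tg in red. Black marks give mean and SD, and marker shapes give the array set by its 3′–5′ difference. The genotypes overlap in every panel, and for Fbxo6 and Fbxl15 the mice of the low array set (triangles pointing down) have the highest values of their genotype.

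Fbxo2 and its relatives Fbxo6, Fbxo17, Fbxo27 and Fbxo44 were looked at as a group, and none of their probe sets passed the test. They share a type of domain with which Fbxo2 and Fbxo6 are known to recognise high-mannose glycans on proteins returned from the endoplasmic reticulum. Sugar binding by the others is not assumed here. Of the 8 probe sets of this group 6 had a lower and 2 a higher mean, with a median log2 fold change of -0.21. Of all probe sets, 51.7% on MOE430A and 47.6% on MOE430B had a higher mean in UBB+1 tg mice. The MOE430A values of Fbxo2 and Fbxo6 also fell with the 3′–5′ difference, as given below. Fbxo6, Fbxo44 and Fbxo2 are neighbours on chromosome 4, and Fbxo27 and Fbxo17 are neighbours on chromosome 7.

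Fbxo6 on MOE430A (1417501_at) had log2 values of 6.41, 6.89 and 7.48 (lowest, median, highest) in UBB+1 tg mice, compared with 7.89, 6.78, 7.88, 7.15 and 7.21 in mice wt287, wt289, wt290, wt291 and wt321. The highest values of each genotype were those of the low array set and the lowest those of the high array set. The log2 fold change was -0.47 (SE 0.23, limma unadjusted p = 0.0688; exact permutation test, p = 0.104). Its MOE430B probe set 1447671_x_at, whose name marks possible cross-hybridisation, gave -0.23 (SE 0.14), with mouse wt287 at 6.95 above all others.

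Fbxo2, the brain-enriched member, ranged from 7.18 in mouse tg270 to 10.16 at highest in UBB+1 tg mice, with a median of 9.80. The wild-type values were 10.77, 8.28, 11.11, 9.17 and 9.70 in mice wt287, wt289, wt290, wt291 and wt321, so the spread within a genotype exceeded 2 log2 units. The log2 fold change was -0.42 (SE 0.62), and it was 0.43 among mice of the middle array set and 0.014 after adjustment for the 3′–5′ difference. Fbxo44 on MOE430B (1434455_at) ranged from 8.39 to 8.99 with a median of 8.63 in UBB+1 tg mice and from 8.55 to 9.54 with a median of 8.84 in wild-type mice, a log2 fold change of -0.28 (SE 0.17, limma unadjusted p = 0.116). Its second probe set gave -0.06 (SE 0.09). The remaining members of the group were Fbxo27, with -0.20 (SE 0.22) and 0.10 (SE 0.20), and Fbxo17, with 0.10 (SE 0.09).

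Receptors known from synapses and neurites showed no common direction. Fbxo45, which works with the large ligase Mycbp2 at synapses and in axon growth, had the largest mean difference of these, 0.45 (SE 0.27) for 1452895_at. Its log2 values were 8.19, 8.93 and 9.34 (lowest, median, highest) in UBB+1 tg mice and 7.86, 8.27, 8.10, 8.61 and 9.20 in mice wt287, wt289, wt290, wt291 and wt321, so that the ranges overlapped over most of their length. The other Fbxo45 probe set gave 0.22 (SE 0.21), and -0.004 in the middle array set alone. Fbxl20, also called Scrapper, which controls the active-zone protein Rims1, had 0.14 (SE 0.08) on MOE430A and 0.27 (SE 0.33), 0.12 (SE 0.28) and -0.04 (SE 0.07) on MOE430B, and the probe set at 0.12 turned sign without mouse tg270, whose value of 10.07 was far above the others.

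Fbxo41, found mainly in neurons, gave -0.09 (SE 0.21) and -0.02 (SE 0.18), and both values turned sign on blocking by array set. Fbxl16, a brain-enriched receptor at percentile 99.4 of MOE430B, ranged from 9.87 to 11.27 in UBB+1 tg and from 10.46 to 11.29 in wild-type mice, a log2 fold change of -0.19 (SE 0.23). Fbxo31, known for cyclin D1 turnover and for axon growth, gave -0.32 (SE 0.23) on MOE430A and -0.06 (SE 0.22) on MOE430B, the latter turning sign after adjustment for the 3′–5′ difference. Fbxo7, whose mutations cause an inherited parkinsonian disorder, gave 0.01 (SE 0.13), a value whose sign turned on leaving out single animals. Fbxl2, a membrane-anchored receptor, gave 0.11 (SE 0.19), and its lowest UBB+1 tg value of 5.10, in mouse tg271, lay well below the other 5.

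Among the WD40 receptors, Fbxw7, which targets Myc, Notch1 and cyclin E, had higher means in UBB+1 tg mice on both of its MOE430A probe sets. Probe set 1451558_at had log2 values of 9.94, 10.10 and 10.83 (lowest, median, highest) in UBB+1 tg mice and 9.48, 10.37, 9.77, 10.29 and 9.90 in mice wt287, wt289, wt290, wt291 and wt321, and gave 0.26 (SE 0.20). Probe set 1424986_s_at gave 0.33 (SE 0.37). Neither passed the test, and the genotypes overlapped. Fbxw11, a paralog of Btrc that recognises phosphorylated β-catenin and IκB, had 5 probe sets, of which 1425462_at gave 0.28 (SE 0.13, limma unadjusted p = 0.0531) with all 6 UBB+1 tg mice above the wild-type mean. The others gave 0.19 (SE 0.16), -0.18 (SE 0.11), -0.05 (SE 0.06) and -0.02 (SE 0.06), so the probe sets of Fbxw11 disagreed in sign. In the middle array set alone, the means of 1425462_at were 9.83 in UBB+1 tg and 9.75 in wild-type mice.

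Fbxw2 had 7 probe sets, from -0.12 to 0.27, of which 3 had a positive sign. Fbxw8, which pairs with Cul7 in place of Cul1 and acts in dendrite growth, gave 0.006 (SE 0.13), 0.02 (SE 0.25) and -0.14 (SE 0.17), each of which turned sign under at least 1 alternative. Fbxw5 had all 6 UBB+1 tg mice below the wild-type mean at a log2 fold change of -0.16 (SE 0.12), and 0.02 in the middle array set alone. The chromosome 9 group of Fbxw genes numbered from 13 to 27 was covered by 10 probe sets of 9 genes, of which 5 were higher and 5 lower with a range from -0.08 to 0.10 and a median of -0.002.

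Further receptors with the smallest unadjusted p on their array also fell short of the adjusted threshold. Fbxo38 gave 0.31 (SE 0.15), with all 6 UBB+1 tg mice above the wild-type mean. In the middle array set alone, its means were 8.27 in UBB+1 tg and 8.14 in wild-type mice. Fbxo36 gave 0.16 (SE 0.09) on 1 probe set and -0.10 (SE 0.11) on the other. Fbxo22 gave -0.35 (SE 0.18) on 1426592_a_at but 0.27 (SE 0.27) and 0.13 (SE 0.13) on its other probe sets. Fbxl5, the iron-regulated receptor of Ireb2, gave 0.17 (SE 0.12) on MOE430B. Fbxo28 gave -0.27 (SE 0.18), 0.22 (SE 0.31) and 0.07 (SE 0.14) on 3 probe sets, Fbxo3 gave 0.15 (SE 0.09) on 1423491_at within a range of 0.01 to 0.39 over 5 probe sets, Fbxl7 gave -0.10 (SE 0.09) on 1456220_at, and Fbxo30 gave 0.10 (SE 0.07) on 1453136_at, at percentile 1.6 of its array.

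Beyond the 51 probe sets that the rule for naming or the fixed roles cover, 30 on MOE430A had log2 fold changes from -0.71 (Fbxl15) to 0.47 (Fbxo33, second probe set), 18 of them positive, and 34 on MOE430B had values from -0.20 (Fbxo27) to 0.22 (Fbxo28), 11 of them positive. Their smallest unadjusted limma p was 0.117 on MOE430A and 0.365 on MOE430B.

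**Figure D3:**
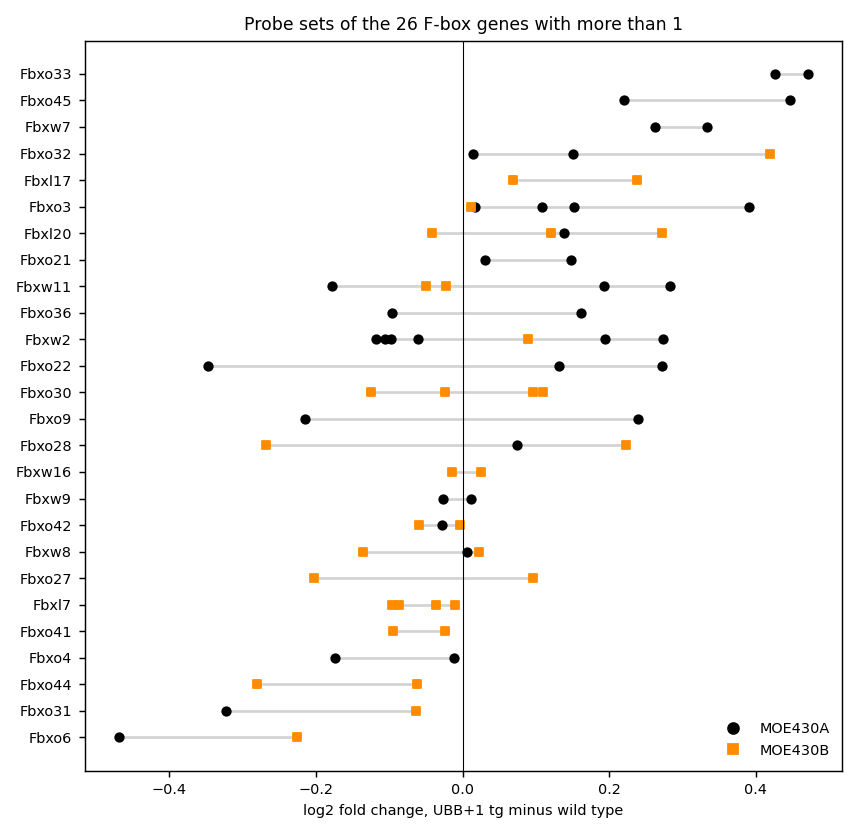
Log2 difference between UBB+1 tg and wild-type means (x axis) of each probe set of the 26 F-box genes that have more than 1 (y axis), with circles for MOE430A, squares for MOE430B and a grey line joining the probe sets of a gene. In 7 genes all probe sets are higher, in 7 all are lower and in 12 the signs are mixed.

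Of the 26 genes with more than 1 probe set, 7 had only positive and 7 only negative log2 fold changes, whereas 12 had mixed signs. Leaving out any 1 mouse kept the sign for 40 of 57 probe sets on MOE430A and for 29 of 58 on MOE430B. Each UBB+1 tg mouse exceeded the wild-type mean for 7 probe sets on MOE430A and 1 on MOE430B, and lay below it for 1 and 2. The shares over all probe sets were not computed for these counts, so they show no direction of the members as a group. The level of 10 members on MOE430A and 6 on MOE430B was under the 25th percentile of all probe set means on the array, where values may be close to background.

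More F-box members passed the FDR for a slope on the 3′–5′ difference, 11 on MOE430A and 2 on MOE430B, than for genotype. In a limma fit with genotype and the 3′–5′ difference, 4 members on MOE430A had a positive slope past an FDR of 10%, compared with 3.91% of all probe sets, and 7 had a negative slope, compared with 4.35%. On MOE430B 0 had a positive slope, compared with 0.675%, and 2 had a negative slope, compared with 0.937%. Per log2 unit of the 3′–5′ difference, Fbxo2 had the steepest slope at -0.86, followed by Fbxl15 at -0.76, Fbxl6 at -0.55, Fbxo6 at -0.35, Fbxo31 at -0.32, Fbxo4 at -0.21 for 1427121_at and Fbxl12 at -0.19. The other Fbxo4 probe set, 1421543_at, had a slope of -0.03, which did not pass. Positive slopes were those of Fbxo33, at 0.49 for 1426871_at and 0.20 for 1426870_at, Fbxo3 at 0.30 for 1455047_at and Fbxo9 at 0.26 for 1417480_at. The pair on MOE430B was Fbxw8 (1436732_s_at, -0.34) and Fbxo7 (-0.17). Some calls on MOE430A depended on the control used. With β-actin alone, Fbxo4 (1427121_at), Fbxl12 and Fbxo3 (1455047_at) did not pass (limma adjusted p of 0.204, 0.162 and 0.124). With Gapdh alone, Fbxo9 (1417480_at) and Fbxo33 (1426870_at) did not pass (limma adjusted p of 0.272 and 0.178). Some other members passed only with Gapdh alone or only with β-actin alone.

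**Figure D4:**
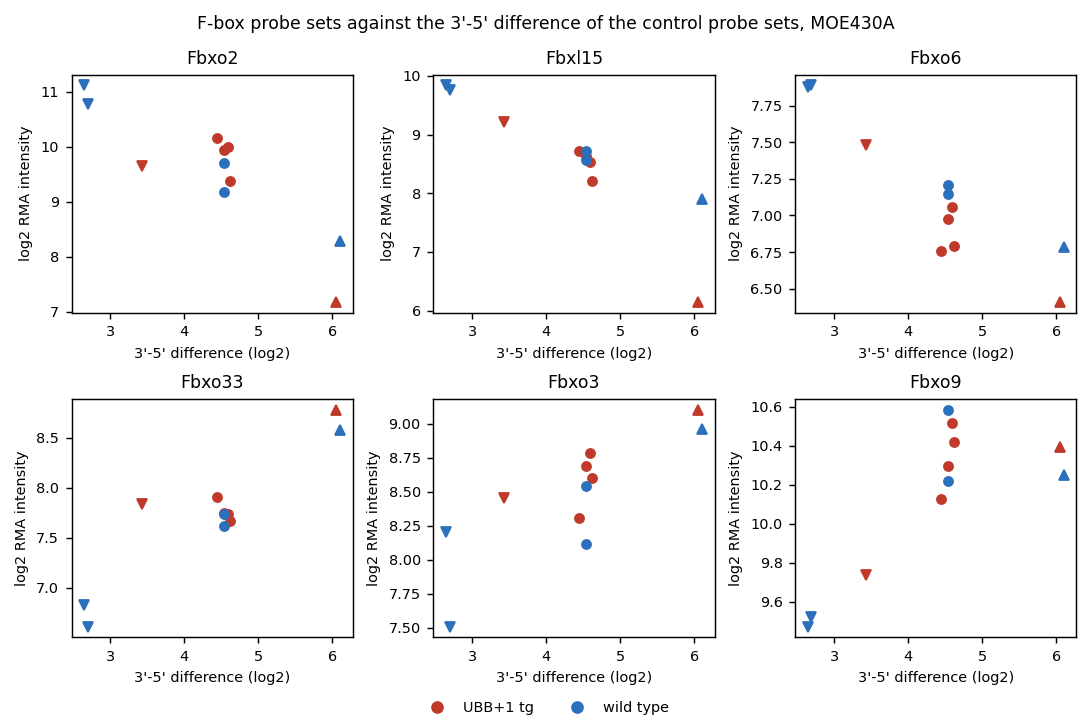
Log2 RMA intensity (y axis) of 6 F-box probe sets on MOE430A against the 3′–5′ difference of the control probe sets (log2, x axis), 1 point per mouse, wild type in blue and UBB+1 tg in red, with marker shapes for the low, middle and high array sets. Fbxo2, Fbxl15 and Fbxo6 fall and Fbxo33, Fbxo3 and Fbxo9 rise along the x axis, with slopes from -0.86 to 0.49 per log2 unit.

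Fbxl15, the receptor of the ligase Smurf1, shows how these values lie. Its log2 value was 9.22 in mouse tg271 and 9.76 and 9.84 in mice wt287 and wt290 of the low array set, and it was 6.15 in mouse tg270 and 7.90 in mouse wt289 of the high array set. The middle set held 8.73, 8.54, 8.63 and 8.21 in mice tg273, tg274, tg276 and tg277 and 8.72 and 8.57 in mice wt291 and wt321. Its log2 fold change, the lowest of all members, was -0.71 (SE 0.53) over all mice, -0.12 in the middle set alone and -0.33 after adjustment for the 3′–5′ difference. For all 11 probe sets with a slope past the FDR on MOE430A, the log2 fold change between genotypes had the same sign as the slope, and for 0 of the 2 on MOE430B. Over all members the signs were the same in 40 of 57 and 38 of 58. UBB+1 tg mice had the higher mean 3′–5′ difference, 4.61 compared with 4.10 on MOE430A and 4.85 compared with 4.22 on MOE430B. A slope therefore moves the unadjusted fold change of any probe set, member or not, towards the sign of the slope. The shares with the same sign over all probe sets were not computed, so these counts describe no trait of the F-box members.

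Blocking by array set gave the members a median SE of 0.11, compared with 0.15 without it on MOE430A, and of 0.10 compared with 0.13 on MOE430B. The array sets were found by clustering these same values, so a smaller SE is partly built in and p-values with the block can be too small. Of all probe sets on MOE430A, 7.19% had an unadjusted p under 0.05 with the block, compared with 3.48% without it. Again 0 members passed an FDR of 10%. At an unadjusted p under 0.05, 3 members were higher on MOE430A, compared with 3.77% of all probe sets, and 5 were lower, compared with 3.42%, while on MOE430B 2 were higher, compared with 2.38%, and 0 were lower, compared with 2.68%. On MOE430A the higher ones were both Fbxo33 probe sets (0.33 and 0.39) and Fbxo21 (1451543_at, 0.25), and the lower ones were Fbxo6 (-0.33), Fbxl15 (-0.57), Fbxo9 (1432211_a_at, -0.51), Fbxw11 (1425461_at, -0.26) and Fbxo43 (-0.19). Of these Fbxo6 had the smallest limma p, 0.00152 unadjusted and 0.658 adjusted. On MOE430B they were Fbxl17 (1430241_at, 0.26) and Fbxo32 (1435265_at, 0.32). The other probe sets of Fbxo9 and Fbxo21 were not among these. Without the block, Fbxo9 gave 0.24 on 1417480_at but -0.22 on 1432211_a_at, and Fbxo21 gave 0.03 on 1452828_at and 0.15 on 1451543_at. The block turned the sign of 4 members on MOE430A and 9 on MOE430B.

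**Figure D5:**
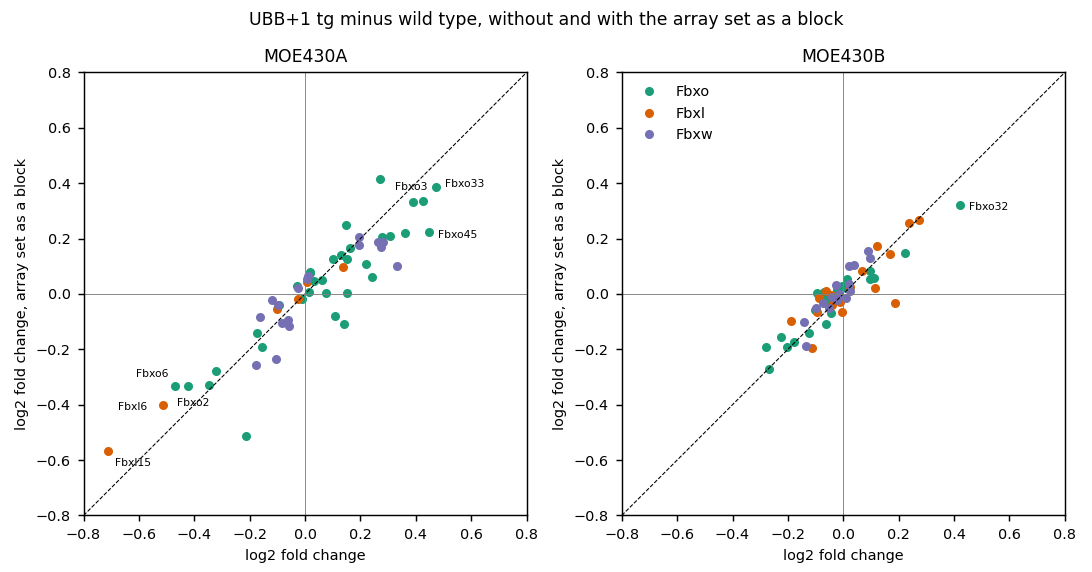
Log2 difference between UBB+1 tg and wild-type means of each F-box probe set without (x axis) and with (y axis) blocking by array set, MOE430A on the left and MOE430B on the right, coloured by family; the dashed line marks equal values. On MOE430A 37 of 57 members and on MOE430B 34 of 58 are closer to 0 with the block.

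No measured partner of the F-box receptors passed an FDR of 10% either. In the gene lists below, unlike the F-box members, each gene was represented by 1 probe set. The counts and values given for a gene therefore leave out any other probe sets it has. The list of the SCF core and its E2 enzymes held 14 symbols, among them Skp1a and Ube2d2 as older names of Skp1 and Ube2d2a. Its 12 genes were all measured, with 0 at an unadjusted p under 0.05 and a median log2 fold change of 0.14. Cul1 gave 0.41 (SE 0.33) and 0.12 on blocking by array set, where 0 of the 12 had an unadjusted p under 0.05, Skp1 gave -0.01 (SE 0.15) and Rbx1 gave -0.02 (SE 0.09). Of the F-box genes with other symbols 6 of 7 were measured and 0 had an unadjusted p under 0.05, with Skp2 at -0.02 (SE 0.10) and Btrc at -0.20 (SE 0.19). On blocking by array set 1 of these, Kdm2a, was lower at -0.42 (limma unadjusted p = 0.0098), compared with -0.33 without the block. In that fit 2.68% of all probe sets on MOE430B, its array, were lower at an unadjusted p under 0.05. The list for neddylation and SCF exchange, which switches cullins on and swaps their receptors, had 23 of 24 genes measured, 0 at an unadjusted p under 0.05 and a median of 0.01. On blocking by array set 3 of them were lower at an unadjusted p under 0.05, compared with 3.42% of all probe sets on MOE430A. These were the COP9 signalosome subunit Cops6 at -0.64 (limma unadjusted p = 0.0033), the exchange factor Cand1 at -0.40 (limma unadjusted p = 0.030) and Dcun1d1, which promotes cullin neddylation, at -0.45 (limma unadjusted p = 0.039). Of the reported substrates of F-box proteins 26 of 27 were measured, with a median of -0.03. At an unadjusted p under 0.05, 1 was higher and 0 lower, compared with 1.91% and 1.57% of all probe sets on MOE430A. The 1 was Ireb2, the substrate of Fbxl5, at 0.35 (SE 0.15, limma unadjusted p = 0.0426, adjusted p = 0.984), and on blocking by array set it gave 0.27 (limma unadjusted p = 0.0665).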

How the data were processed

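CA3 tissue was cut by laser from frozen sections, and 5 ng of total RNA per mouse was amplified in 2 rounds. Each mouse had 1 MOE430A and 1 MOE430B array, except mouse wt331, which had MOE430B alone. The authors summarised the arrays with RMA, for each array kind separately (version not given in the sources used here). The deposited MOE430A values are intensities on a linear scale rounded to whole numbers, and the deposited MOE430B values are log2 intensities. The extraction kit is named differently in the labels and the methods. MOE430A intensities were converted to log2, and 64 control probe sets per array and, on MOE430A, 1 probe set that the methods exclude were left out. Genes came from the platform annotation, which names 1 gene for 20379, several for 691 and none for 1555 probe sets on MOE430A, and 14661, 245 and 7605 on MOE430B. All symbols of members matched RefSeq.

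Genotypes were compared on each array with limma 3.58.1 in R 4.3.3 (lmFit, eBayes, two-sided, Benjamini-Hochberg over the array, FDR of 10%), the check named in the methods. The method used for the study's gene list works on single probes and was not used here. The paper reports that RMA and limma at this FDR upheld its results, whereas 0 probe sets of either array passed here. The reason for this difference was not tested. Single probe sets were also tested by exact permutation over animals, with 462 splits on MOE430A and 924 on MOE430B. Array sets came from complete-linkage clustering of the tested values (1 minus Pearson r, 3 groups), so p-values with the block can be too small. The fit was tested on simulated data. The members and the gene lists were chosen with earlier results of these data known. Named members are those at an unadjusted p under 0.05, the 5 with the smallest p in each direction per array, and 15 genes fixed for their roles; those named for a slope or under the block were chosen after their values were seen. Alternatives covered thresholds, dim and cross-hybridising probe sets, scaling, weights, covariates, the block and single animals. Separate mice were the replicates, and precision is limited by how many there were.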

Additional observations from a re-analysis of the deposited data

Results flagged for a closer look

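In 9 of the 102 groups of mice examined (a genotype on an array, for the F-box probe sets named by the rule), the highest or lowest mouse stood far from the others of its genotype. Chance marks about 1 in 20 such groups. Of the 9, 5 came from mouse tg271 of the low array set and 2 from mouse tg270 of the high array set.

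Mouse tg271 had the highest log2 value of its genotype for 3 Fbxw2 probe sets, with 4.86 for 1432411_a_at (the other 5 mice at 4.52 to 4.64), 4.81 for 1436487_x_at (4.09 to 4.32) and 5.71 for 1438131_at (4.78 to 4.90), all of them at a low level. It was also highest for Fbxw13 (1443298_at) at 4.38, with the others at 3.83 to 4.01, and lowest for Fbxl2 (1428427_at) at 5.10, with the others at 6.09 to 6.32. Mouse tg270 was lowest for Fbxo2 (1427004_at) at 7.18, with the others at 9.37 to 10.16, and highest for Fbxl20 (1456378_s_at) at 10.07, with the others at 8.24 to 8.74.

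Among wild-type mice, wt331 was lowest for Fbxl17 (1430241_at) at 7.02, with the others at 7.35 to 7.50, and wt287 was highest for Fbxo6 (1447671_x_at) at 6.95, with the others at 6.10 to 6.32. The cause of these values was not tested.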

How the results depend on the processing

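In all alternatives run, 0 F-box probe sets passed an FDR of 10% in limma on either array. Of the 1097 recomputed values of the 51 named probe sets, 1051 kept their sign, and 36 probe sets kept it in every alternative run. The causes of the changes below were not tested, and the number of arrays and dim probe sets limit the precision.

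The count at an unadjusted p under 0.05 on MOE430A was 1 (limma); it was 6 with array weights, 2 after adjustment for the 3′–5′ difference, 8 on blocking by array set and 2 among mice of the middle array set (an alternative chosen after seeing the data). The shares of all probe sets at this p in the same fits were 3.48%, 10.4%, 3.35%, 7.19% and 5.17%, from the unweighted fit to the middle array set in that order. It was 0 at p under 0.01, with a 1.5-fold minimum or with probe sets averaged per gene. Leaving out 1 mouse gave 0 to 6, with 6 without mouse tg271 or mouse wt289, 4 without mouse wt291 or wt321, 2 without mouse tg273, and 0 without mouse tg274 or tg277 or mouse wt290, where the share of all probe sets ran from 1.98% to 6.66%, the highest without mouse tg271. The MOE430B count was 3; it was 1 after adjustment for the 3′–5′ difference and 0 without mouse wt331 (the animals on both arrays), at p under 0.01 or with a 1.5-fold minimum. Leaving out 1 mouse gave 0 to 6, with 6 without mouse tg271, 2 without mouse tg270, tg274 or tg276 or mouse wt321, and 1 without mouse tg273 or tg277 or mouse wt287 or wt290. The share of all probe sets was 3.05% on MOE430B, 2.93% after that adjustment and 2.34% to 6.35% leaving out 1 mouse, again highest without mouse tg271.

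The median log2 fold change on MOE430A was 0.02; it was 0.10 without dim probe sets, 0.045 with the block, 0.067 in the middle array set and 0.010 to 0.048 leaving out 1 mouse. On MOE430B it was -0.047 to -0.017 leaving out 1 mouse. The 11 slopes past the FDR on MOE430A became 6 to 12 leaving out 1 mouse, with 6 without mouse wt287. The 2 slopes on MOE430B became 6 with β-actin alone, 1 at an FDR of 5%, 0 without mouse wt287 and 0 to 2 over all mice left out.

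Signs turned as follows. After adjustment for the 3′–5′ difference, Fbxo2 gave 0.014, Fbxo31 (1428926_at) 0.042, Fbxo32 (1417522_at) -0.00045, and Fbxo41 0.066 (1440376_at) and 0.033 (1456444_at). With the block Fbxo41 gave 0.0017 and 0.014. In the middle array set alone Fbxo2 gave 0.43, Fbxo45 (1428742_at) -0.0040, Fbxw5 0.019 and Fbxw8 (1458413_at) 0.18. With array weights Fbxw2 gave 0.031 (1423442_a_at) and -0.013 (1438131_at), and Fbxw8 -0.031 (1426944_at) and 0.049 (1458413_at). With values floored at the 25th percentile, 7 named probe sets lay at the floor in every mouse and gave no value. Leaving out 1 mouse gave Fbxl20 (1456378_s_at) -0.15 to 0.22, Fbxo2 -0.80 to 0.018, Fbxo31 (1428926_at) -0.21 to 0.094, Fbxo32 (1417522_at) -0.019 to 0.052, Fbxo41 -0.20 to 0.0032 (1440376_at) and -0.16 to 0.075 (1456444_at), Fbxo7 -0.081 to 0.065, Fbxw11 (1447294_at) -0.051 to 0.0061, Fbxw2 -0.32 to 0.029 (1423442_a_at) and -0.055 to 0.13 (1438131_at), and Fbxw8 -0.080 to 0.086 (1426944_at) and -0.10 to 0.20 (1436732_s_at). No paired analysis was possible because the labels give mice of the 2 genotypes no shared number or litter.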
